A study of Rattus norvegicus with 6 samples.

Results

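Galectins and their glycoprotein partner galectin-3-binding protein were measured in rat atrial fibroblasts as the genes Lgals1, Lgals3, Lgals8, Lgals9 and Lgals3bp. These 5 genes were taken by symbol from a table of 40154 genes, and all 5 were among the 14852 genes with enough reads to be tested. In the libraries labelled si-GPD1L, Lgals9 stood 5.11-fold and Lgals3bp 3.71-fold higher than in si-NC, whereas Lgals1, Lgals3 and Lgals8 did not pass the test.

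Galectins are small lectins that bind beta-galactosides on the glycans of glycoproteins and glycolipids. They are made in the cytosol, leave the cell without a signal peptide, and crosslink glycoproteins at the cell surface and in the extracellular matrix, while cytosolic galectins mark endosomes and lysosomes whose membranes have broken. Galectin-1 is a dimer of a lectin domain, galectin-3 joins a lectin domain to a self-associating tail, and galectin-8 and galectin-9 carry a pair of linked lectin domains. Galectin-3-binding protein is not a galectin but a secreted glycoprotein with a scavenger receptor cysteine-rich domain that galectins bind. Galectin-3 is best known in the heart for its link to fibrosis.

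The cells were atrial fibroblasts of Sprague-Dawley rats aged 1 to 3 days, separated from myocytes by letting them adhere for 1.5 h. They received si-NC, the control siRNA, or si-GPD1L, an siRNA against GPD1L, and RNA was sequenced 24 h later from polyA-captured libraries, with 3 libraries in each group. Both groups came from the same strain and the same medium with serum, and the labels also give the treatment of all 6 libraries as atrial differentiation. The comparison addressed which transcripts differ when GPD1L, a protein related to glycerol-3-phosphate dehydrogenase, is silenced. The labels do not say whether the libraries of a group came from separate animals or cultures, so the p-values measure the spread between these libraries, which may be technical. They also do not say whether the digits of si-GPD1L1 to si-GPD1L3 number replicates or different siRNAs.

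The libraries held between 16892255 and 20149732 counted reads. The normalized read count, which scales each library to the mean library size, of the targeted gene Gpd1l was 262, 332.2 and 313.3 in si-NC replicates 1 to 3 and 220.2, 208.1 and 302.4 in si-GPD1L replicates 1 to 3. Replicate 3 of si-GPD1L lay inside the si-NC range, and Gpd1l did not pass the test (log2 fold change -0.31, adjusted p = 0.234, edgeR's quasi-likelihood test with Benjamini-Hochberg adjustment). All 12 fibroblast markers were measured, Col1a1 among them at a mean of 762700 normalized counts in si-NC. All 12 cardiomyocyte markers were measured as well, with Tnnt2 at 10910 ± 1044 and Myh6 at 7685 ± 1286 normalized counts in si-NC (SD, n = 3). The cells of these bulk samples were not separated, so fewer cells of a type and less RNA per cell cannot be told apart.

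The promoters of Lgals3bp and Lgals9 are shown because both of these genes rose and both hold the core of the interferon-stimulated response element (ISRE), a motif read by interferon regulatory factors. The third sequence is from Lgals5, a rat paralog of Lgals9. Each window of 30 bases runs 5′ to 3′ on the sense strand of its gene, with the match in capitals. The core was taken as 2 copies of GAAA with any 2 bases between them, or the reverse complement of this. The sequences are RefSeq's for the assembly GRCr8, in which these 3 genes lie on the minus strand. Their positions cannot be set beside the rn6 coordinates used for the counts, where Lgals9 is on the plus strand.
Lgals3bp: gtgttttctgGAAATCGAAActagactagg
Lgals9: gtagctgtggTTTCTGTTTCctagctgagt
Lgals5: ggagctgtggTTTCTGTTTCctacctgaat

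The Lgals3bp window lies at chr10:104127879-104127908 in GRCr8, and its match reads in the sense direction from 50 to 41 bases before the transcript start. The Lgals9 window lies at chr10:64428067-64428096 and the Lgals5 window at chr10:64355171-64355200. Both of these matches read in the antisense direction, from 16 to 7 bases before the start in Lgals9 and from 53 to 44 bases before it in Lgals5. RefSeq promoters, 250 bases before to 50 bases after a start, were at hand for 3 of the 5 genes (Lgals3bp, Lgals8 and Lgals9), and the Lgals8 promoter held no such match. On either strand the core was found in 3.92% of 33469 promoters, in 3.03% of the 12623 promoters of tested genes, and in 15.5% of the 491 promoters of genes that were called higher, Lgals3bp and Lgals9 included. A match describes the letters of the window and not a site in use.

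Of the 3 other motifs searched on both strands, the GAS element bound by STAT dimers (TTCNNNGAA) was in none of the 3. It was in 8.87% of all promoters, 7.18% of those of tested genes and 9.16% of those of genes called higher. The AP-1 site (TGANTCA) was found in Lgals9 only among the 3. This motif was in 7.33% of all promoters, 4.99% of those of tested genes and 6.31% of those of genes called higher. The Lgals9 match runs from 40 to 34 bases before the start and does not overlap the ISRE match. That window, at chr10:64428092-64428121 in GRCr8, is shown with the match in capitals.
Lgals9: ctcctccccgtTGAGTCAgtgccaagtagc

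The GC box (GGGCGG) was matched 2 times in Lgals8 and 1 time in Lgals9, and Lgals3bp had no match. It was in 33.1% of all promoters, 58.5% of those of tested genes and 55.8% of those of genes called higher. Over 231 aligned bases the promoters of Lgals9 and Lgals5 were 96.5% identical, with a longest shared run of 82 bases. The other pairs among Lgals3bp, Lgals5, Lgals8 and Lgals9 were 56.4% to 64.3% identical, with shared runs of 7 to 9 bases.

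Lgals9 (NCBI gene 25476), whose product binds among others the T-cell receptor TIM-3, lies on the plus strand of chromosome 10 from 64737022 to 64760195 in rn6. The 3 si-NC libraries had 322.3, 331.2 and 291.8 normalized counts of Lgals9, and the 3 si-GPD1L libraries had 1556, 1811 and 1461. The lowest si-GPD1L library thus lay far above the highest si-NC library. The means were 315.1 ± 20.65 and 1609 ± 181.1 (SD, n = 3 each), a log2 fold change of 2.35 (SE 0.0974, 95% interval 2.14 to 2.57, adjusted p = 3.64e-09, edgeR). By p-value Lgals9 was in place 39 of the 14852 genes tested, and by the size of the rise in place 85.

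Lgals3bp (NCBI gene 245955) is found on the same chromosome, minus strand, from 107415334 to 107424672. It had 3706, 3970 and 3913 normalized counts with si-NC, against 13440, 15520 and 14050 with si-GPD1L. The groups did not overlap, and in both Lgals9 and Lgals3bp replicate 2 was the highest of the si-GPD1L libraries. The means were 3863 ± 138.6 and 14340 ± 1072 (SD, n = 3 each), a log2 fold change of 1.89 (SE 0.0808, 95% interval 1.72 to 2.07, adjusted p = 5.17e-09, edgeR). Lgals3bp was in place 40 by p-value and in place 111 by the size of the rise.

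Lgals1 (NCBI gene 56646; chromosome 7, plus strand, 120153184 to 120156290) encodes the galectin with the most transcripts in these cells. Its normalized read count was 7733, 6512 and 5944 in si-NC and 6297, 5929 and 6268 in si-GPD1L. The groups overlapped, and si-NC replicate 1 stood above the other 5 libraries. The log2 fold change was -0.13 (95% interval -0.33 to 0.076, adjusted p = 0.457, edgeR).

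Lgals3 (NCBI gene 83781; chromosome 15, plus strand, 24153602 to 24165537), the galectin most often tied to cardiac fibrosis, had normalized read counts of 2359, 2037 and 2061 in si-NC and 1900, 1833 and 1942 in si-GPD1L. The 3 si-GPD1L libraries lay below the 3 si-NC libraries, a separation in one direction or the other that 29.0% of all tested genes showed. The log2 fold change of -0.19 (SE 0.0752, 95% interval -0.35 to -0.023) did not pass after adjustment (unadjusted p = 0.0287 and adjusted p = 0.166, edgeR).

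Lgals8 (NCBI gene 116641; chromosome 17, minus strand, 66487451 to 66515316), whose product recognizes glycans exposed on damaged vacuoles, had normalized read counts of 554.6, 486.7 and 512.4 in si-NC and 505.9, 550.7 and 477.1 in si-GPD1L. The groups overlapped and the log2 fold change was -0.018 (95% interval -0.22 to 0.18, adjusted p = 0.935, edgeR). Its sign turned when 1 library was left out, to 0.033 when si-NC replicate 1 was left out and to 0.027 when si-GPD1L replicate 3 was.

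**Figure D1:**
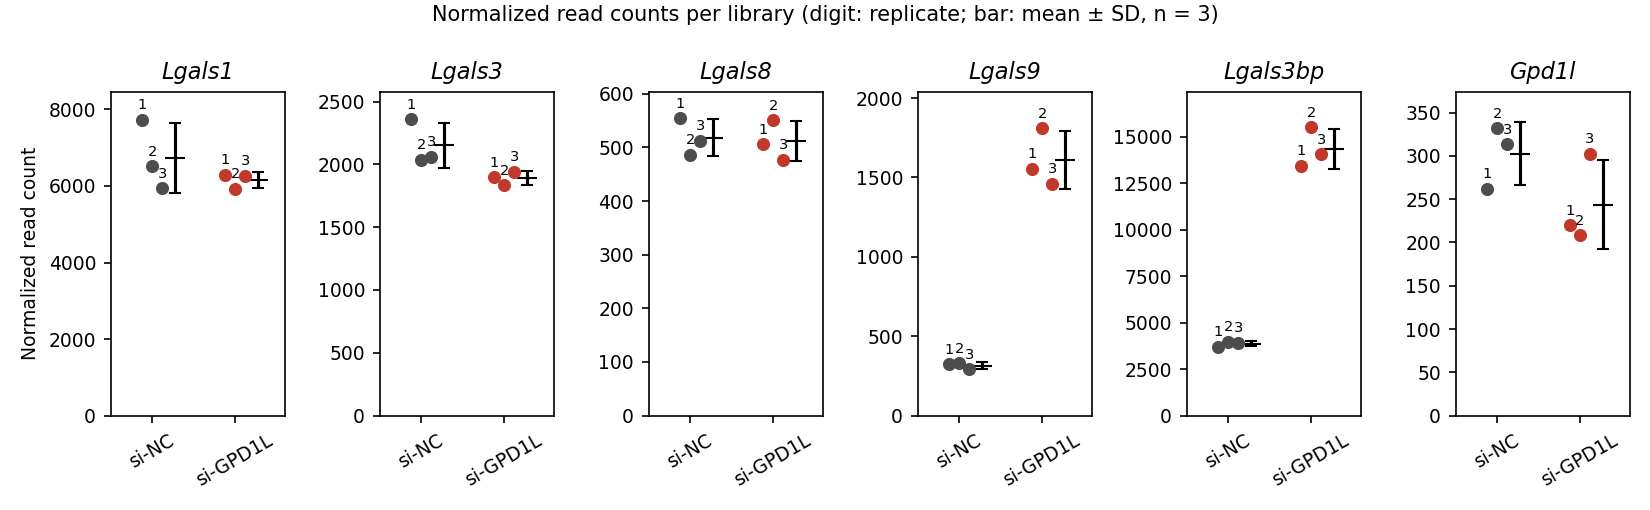
Normalized read count (vertical axis, from 0, a scale of its own for each gene) of the 5 genes and the siRNA target Gpd1l in each library, with digits for the replicate and bars for the mean ± SD (n = 3 per group). The si-GPD1L libraries lie above all si-NC libraries for Lgals9 (1461 to 1811 against 291.8 to 331.2) and Lgals3bp (13440 to 15520 against 3706 to 3970), and the groups overlap for Lgals1, Lgals8 and Gpd1l.

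Of the 5 genes, 2 were called at an adjusted p-value under 0.05, both higher, where 6.36% of the 14852 tested genes were called, 4.03% higher and 2.33% lower. The same 2 genes also passed the fold threshold (log2 fold change beyond 1 in either direction), where 1.62% of tested genes did and 1.48% did so upward. No galectin among the 5 was called lower. At an unadjusted p under 0.05 Lgals3 alone was lower, and DESeq2's Wald test and edgeR's exact test also called 0 of the 5 lower. By p-value, place 3301 of the 14852 tested genes had an unadjusted p of 0.0493 (edgeR), so at least 3301 were under 0.05. Over all genes the calls were 599 higher and 346 lower, and 526 higher and 455 lower when upper-quartile factors set the scale. The median log2 fold change of the 5 genes was -0.018 and that of all tested genes -0.0049.

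**Figure D2:**
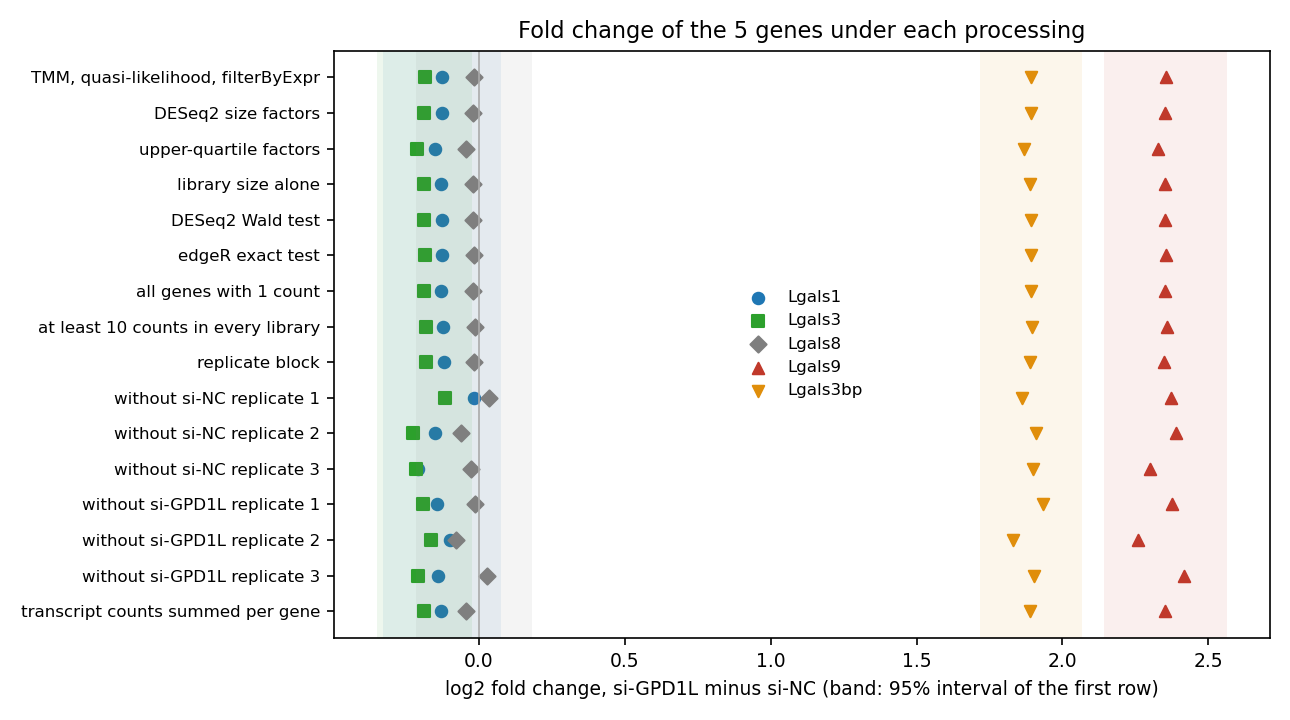
Log2 fold change (horizontal axis, si-GPD1L minus si-NC) of the 5 genes under each way of processing the counts (rows), with bands for the 95% interval of the first row. Lgals9 stays between 2.26 and 2.42 and Lgals3bp between 1.83 and 1.93, while Lgals1, Lgals3 and Lgals8 stay between -0.23 and 0.033.

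The levels of different genes were compared as TPM, the deposited transcript abundance, which takes the length of each gene and the depth of each library into account. In si-NC, Lgals1 had the highest level of the 5 with 1700 ± 147 TPM (SD, n = 3), place 88 among the tested genes. Lgals3 followed at 290 ± 10.5 TPM, Lgals3bp at 230 ± 18.7 TPM, Lgals9 at 27.8 ± 1.75 TPM and Lgals8 at 22.6 ± 0.8 TPM. The ranges of neighbours in this order did not overlap over the 3 libraries, although Lgals3 stood only 1.26 times above Lgals3bp and Lgals9 only 1.23 times above Lgals8.

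In si-GPD1L, Lgals3bp moved up past Lgals3. It had 841.2, 983 and 886.6 TPM in si-GPD1L replicates 1 to 3, against 208.4, 240.7 and 240.9 TPM in the si-NC replicates. Lgals9 stayed between Lgals3 and Lgals8, with 144.7, 170.4 and 137.1 TPM against 26.93, 29.84 and 26.71 TPM. Among all tested genes Lgals9 went from place 5048 to place 1011 by mean TPM and Lgals3bp from 606 to 161. Lgals1 with 1650 ± 47.9 TPM, Lgals3 with 271 ± 7.42 TPM and Lgals8 with 23.6 ± 1.78 TPM held places 85, 512 and 5863. Again no neighbouring ranges overlapped.

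The make-up of the galectin transcripts differed accordingly. The sum of the TPM values of the 5 genes lay between 2136 and 2409 with si-NC and between 2955 and 3039 with si-GPD1L. Of that sum Lgals3bp made up 8.65% to 11.3% with si-NC, against 28.5% to 32.3% with si-GPD1L. Lgals9 made up 1.12% to 1.33%, against 4.56% to 5.61%, and Lgals1 72.9% to 76.8%, against 52.5% to 56.7%. Set against Lgals3, whose product binds galectin-3-binding protein, Lgals3bp stood at 0.692 to 0.859 times its TPM with si-NC, against 3.12 to 3.73 times with si-GPD1L.

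**Figure D3:**
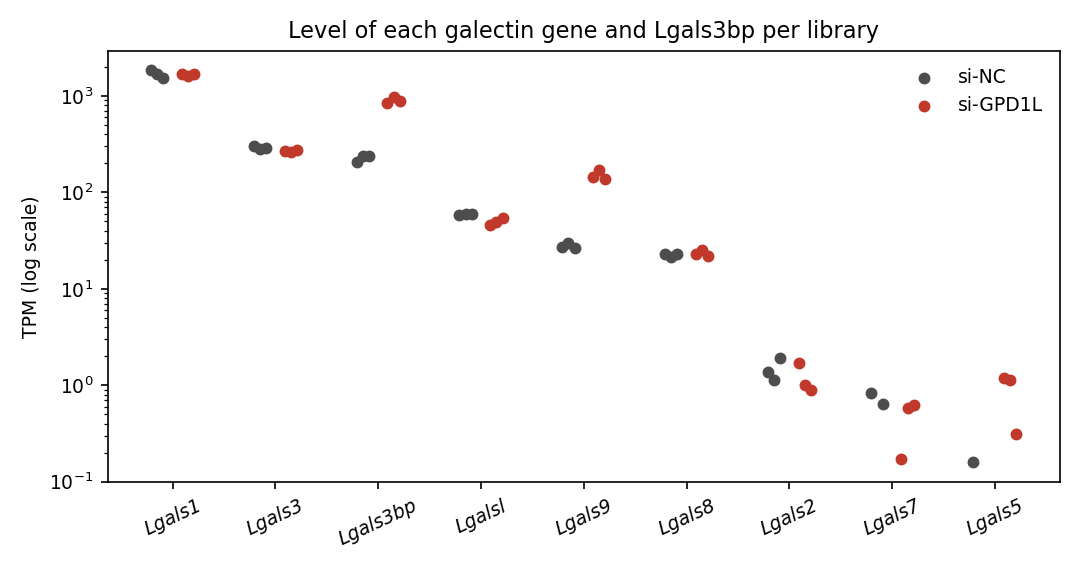
TPM (vertical axis, log scale) of each galectin gene with any reads and of Lgals3bp in the 3 si-NC libraries (grey) and the 3 si-GPD1L libraries (red), with libraries at 0 TPM not drawn. Lgals1 is the highest in both groups, Lgals3bp passes Lgals3 in si-GPD1L (841.2 to 983 against 263.5 to 278.3 TPM), and Lgals2, Lgals7 and Lgals5 lie at most at 1.908 TPM.

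A ratio within a library does not depend on how libraries are scaled to each other. The log2 ratio of the Lgals9 count to the Lgals1 count was -4.59, -4.30 and -4.35 in si-NC and -2.02, -1.71 and -2.10 in si-GPD1L, a difference of 2.47. For Lgals3bp the ratio was -1.06, -0.71 and -0.60 in si-NC and 1.09, 1.39 and 1.16 in si-GPD1L, a difference of 2.01. Lgals3bp thus had fewer reads than Lgals1 in every si-NC library and more in every si-GPD1L library. These reads are not corrected for the length of the genes, 2152 bases for Lgals3bp and 506 for Lgals1. By TPM Lgals3bp stayed below Lgals1, at 50.2%, 61.6% and 52.7% of its level in si-GPD1L replicates 1 to 3. In the ratios of Lgals9 and Lgals3bp the groups did not overlap. The exact two-sided permutation test gave p = 0.1 for each, the smallest p that 3 libraries against 3 allow (0.2 after Benjamini-Hochberg adjustment over 4 ratios). For Lgals3 and Lgals8 the differences were -0.065 and 0.099, with overlapping groups (exact permutation p = 0.4 and p = 0.5, both 0.5 after adjustment). The geometric mean of the tested genes with reads in every library served as another reference. Relative to it the Lgals3 groups did not overlap (difference -0.22, exact permutation p = 0.1, or 0.133 after adjustment), and the difference for Lgals8 was -0.053. Both the separation of the Lgals3 groups and the sign of the Lgals8 ratio thus depended on the reference.

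In the deposited transcript table Lgals9 and Lgals3bp have 1 annotated transcript each, as do Lgals1 and Lgals3, so isoforms could be compared in Lgals8 only, which has 5. Each of the 5 Lgals8 transcripts carried 68.3% to 96.1% of the gene's count and together they summed to 4.26 to 4.39 times that count, so reads shared by isoforms were counted more than once. The log2 fold changes of these transcripts ran from -0.099 to -0.047 and none was called, where 5.89% of 37822 tested transcripts were called. At its end Lgals8 overlaps Heatr1 on the opposite strand, which had 25.38 ± 5.828 normalized counts in si-NC and 27.49 ± 3.86 in si-GPD1L (SD, n = 3 each). Whether counting used strand is not given in the sources used here, so reads of the overlap may belong to either gene.

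Of the 7 other galectin genes of the rat, only Lgalsl, which encodes a galectin-like protein without sugar binding, had enough reads to be tested. Its normalized read count was 1691, 1604 and 1570 in si-NC and 1196, 1278 and 1398 in si-GPD1L. The groups did not overlap, and Lgalsl fell by 0.33 on the log2 scale (SE 0.0762, adjusted p = 0.0249, edgeR). Lgalsl did not pass the test without si-NC replicate 2 (adjusted p = 0.0705, edgeR), without si-GPD1L replicate 1 (adjusted p = 0.151, edgeR) or without si-GPD1L replicate 2 (adjusted p = 0.141, edgeR).

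Lgals5 had 0, 1 and 0 reads with si-NC, against 7, 8 and 2 reads with si-GPD1L. The summed counts of 1 and 17 give a ratio of 16.8 after allowing for depth, with a counting interval of 2.63 to 700 (95%, exact, counting error only), and in a fit without the filter on low counts the adjusted p was 0.0571 (edgeR). Since Lgals5 is a close copy of part of Lgals9, these few reads cannot be assigned to Lgals5 with certainty. Lgals2 had 7, 5 and 9 reads in si-NC and 7, 5 and 4 in si-GPD1L, and Lgals7 had 6, 4 and 0 and 1, 4 and 4. Lgals4, Lgals12 and Grifin, the galectin-related protein of the lens, had 0 reads in all 6 libraries. A count of 0 in 1 library taken alone still allows an expected count of up to 3 there (95% limit).

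Glycoproteins known to carry galectin ligands were listed as a group of 24 genes, of which 23 were tested. Of these, 5 were higher and none was lower, where 4.03% of all tested genes were higher and 2.33% lower, and the median log2 fold change was 0.17 beside -0.0049 for all genes. With upper-quartile factors 2 were higher and 1 lower, and Itga1, Lamc1 and Mcam were not called (adjusted p = 0.0505, 0.055 and 0.0645, edgeR). Ncam1, a neural cell adhesion molecule, had 4386 ± 612.1 normalized counts in si-NC and 6344 ± 481.3 in si-GPD1L (SD, n = 3 each) and rose by 0.53 on the log2 scale (adjusted p = 0.00785, edgeR). The integrin subunits Itga5 and Itga1, which bind fibronectin and collagen, rose by 0.36 and 0.41 (adjusted p = 0.0146 and 0.0434, edgeR), and the laminin chain Lamc1 rose by 0.37 (adjusted p = 0.0458, edgeR). The fifth was Mcam (log2 fold change 0.27). Lamp1 and Lamp2, lysosomal membrane glycoproteins, were at -0.25 and -0.34 on the log2 scale and did not pass edgeR's quasi-likelihood test (adjusted p = 0.0591 and 0.0635). In all, 11 of the 23 had an unadjusted p under 0.05, where at least 3301 of the 14852 tested genes had one. DESeq2's Wald test and edgeR's exact test each called 2 lower. Without si-GPD1L replicate 1, 0 of the 23 were called higher, without si-GPD1L replicate 2 only 1, and without si-NC replicate 1 there were 8. Without si-NC replicate 2 or si-GPD1L replicate 3 the count was 2.

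Among 30 enzymes that build, branch, extend or cap N-glycans, the sugar chains that galectins read, 27 were tested, with 2 lower, none higher and a median log2 fold change of 0.0028, where 2.33% of all tested genes were lower and 4.03% higher. Mgat3, which adds the bisecting N-acetylglucosamine, had normalized read counts of 363.8, 340.7 and 399.2 in si-NC and 247.5, 242.7 and 266.5 in si-GPD1L and fell by 0.55 on the log2 scale (adjusted p = 0.00709, edgeR). Man1a1, a Golgi mannosidase of the early trimming steps, fell by 0.45 (adjusted p = 0.00829, edgeR). Mgat5, whose branched product is a well-known galectin ligand, had 86.94 ± 16 and 103.6 ± 12.86 normalized counts (SD, n = 3 each, log2 fold change 0.25, adjusted p = 0.439, edgeR). St6gal1, which caps galactose with a sialic acid that hinders galectin binding, had a log2 fold change of 0.27 (adjusted p = 0.0861, edgeR). In this list 5 genes had an unadjusted p under 0.05, where at least 3301 of the 14852 tested genes had one. Here edgeR's exact test called 1 higher where DESeq2's Wald test called none. Without si-GPD1L replicate 2 neither Mgat3 (adjusted p = 0.0573, edgeR) nor Man1a1 (adjusted p = 0.0704, edgeR) passed, and without si-GPD1L replicate 1 Man1a1 did not (adjusted p = 0.0639, edgeR).

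Of 30 genes that act on damaged endosomes and lysosomes, where cytosolic galectins bind, 29 were tested, with 1 higher, 3 lower and a median log2 fold change of 0.01, beside 4.03% higher and 2.33% lower among all tested genes. Irgm, an immunity-related GTPase that takes part in autophagy, had normalized read counts of 108.7, 103.7 and 110.3 in si-NC and 696.7, 798.9 and 662.7 in si-GPD1L. It rose by 2.74 on the log2 scale (adjusted p = 2.54e-09, edgeR), and replicate 2 was again the highest of the si-GPD1L libraries. The genes that fell, of which each encodes a protein that coats autophagosomes, were Map1lc3b (-0.33, adjusted p = 0.0127, edgeR), Gabarapl1 (-0.31, adjusted p = 0.0284, edgeR) and Gabarapl2 (-0.31, adjusted p = 0.0494, edgeR). Of their relatives in the list, Map1lc3a was at 0.0081 with overlapping groups (adjusted p = 0.968, edgeR) and Gabarap at -0.25 (adjusted p = 0.0591, edgeR), and neither passed. None of the 3 that fell passed without si-GPD1L replicate 1, 2 or 3, with adjusted p-values of 0.0591 to 0.11 for Map1lc3b in those fits (edgeR). Without si-NC replicate 2, Gabarapl1 and Gabarapl2 did not pass either (adjusted p = 0.1 and 0.107, edgeR), and with the replicate number as a block Gabarapl2 did not (adjusted p = 0.0521, edgeR). For Trim16 and Sqstm1, which meet galectins or ubiquitin on broken vacuoles, the log2 fold change was 0.15 (adjusted p = 0.544, edgeR) and 0.14 (adjusted p = 0.241, edgeR). Calcoco2, which encodes the autophagy receptor that galectin-8 recruits, was listed at 0 in all libraries.

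Of 14 relatives of Lgals3bp with scavenger receptor cysteine-rich domains, 9 were tested, with 1 higher, 2 lower and a median log2 fold change of 0.25, beside 4.03% higher and 2.33% lower among all tested genes. An unadjusted p under 0.05 was found for 6 of the 9 and for at least 3301 of the 14852 tested genes, and edgeR's exact test called 3 higher. Loxl3, a lysyl oxidase that crosslinks collagen, rose by 0.40 (adjusted p = 0.024, edgeR), whereas Ssc5d fell by 0.42 and Prss12 by 0.53 (adjusted p = 0.0465 and 0.0469, edgeR). Each of the 3 lost its call without si-NC replicate 2 (adjusted p = 0.0695, 0.138 and 0.117, edgeR), without si-GPD1L replicate 1 (0.143, 0.209 and 0.173) and without si-GPD1L replicate 2 (0.1, 0.179 and 0.13). Ssc5d and Prss12 also lost it without si-NC replicate 3 (0.0864 and 0.0583) and without si-GPD1L replicate 3 (0.0587 and 0.0531). No tested relative had a fold change of the size seen for Lgals3bp, although Cd163, at 16.51 ± 4.22 and 31.36 ± 4.356 normalized counts, had a log2 fold change of 0.93 (adjusted p = 0.0908, edgeR).

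The 4 fibrosis genes that the study measures in fibroblasts stood beside these. Col1a1, Col3a1, Acta2 and Tgfb1 had log2 fold changes of 0.25, -0.26, -0.14 and 0.11, with adjusted p-values of 0.219, 0.156, 0.29 and 0.378 (edgeR). None was called by the quasi-likelihood test, DESeq2's Wald test or edgeR's exact test, where the quasi-likelihood test called 6.36% of all tested genes. An unadjusted p under 0.05 was found for 2 of the 4, and for at least 3301 of the 14852 tested genes. Without si-NC replicate 1, 1 of the 4 was called higher and 1 lower.

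**Figure D4:**
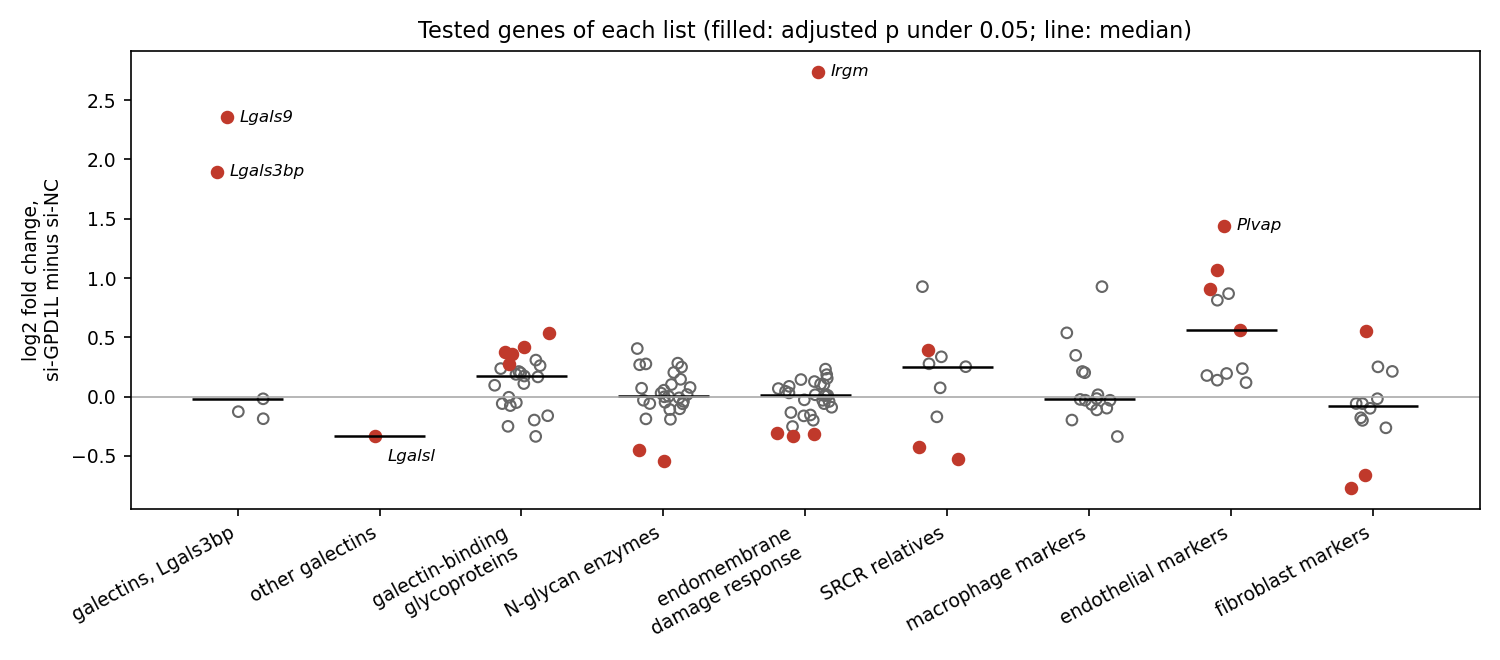
Log2 fold change (vertical axis, si-GPD1L minus si-NC) of each tested gene of the lists, one column of points per list, filled where the adjusted p is under 0.05, with a line at the list's median. Lgals9, Lgals3bp and Irgm stand apart from the rest of their lists at 2.35, 1.89 and 2.74. The 15 tested macrophage markers hold no called gene, where 6.36% of all tested genes were called.

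Macrophages express Lgals3, Lgals9 and Lgals3bp, so their markers were set beside these genes. Of 16 macrophage and leukocyte markers none was at 0 in all libraries, 15 were tested and none was called, where 6.36% of all tested genes were. Of the 15, 1 had an unadjusted p under 0.05, where at least 3301 of the 14852 tested genes had one. None of these markers was called by DESeq2's Wald test, and 1 was called higher by edgeR's exact test. Their normalized counts summed to between 3359 and 3643 with si-NC and to between 2887 and 4111 with si-GPD1L, a ratio of 0.998. Lyz2, the marker with the most reads, had 1561 ± 55.87 and 1535 ± 296 normalized counts (SD, n = 3 each). The log2 fold changes of the 15 ran from -0.34 for Tyrobp to 0.93 for Cd163, with a median of -0.023. Cd163 was the marker with an unadjusted p under 0.05 (adjusted p = 0.0908, edgeR), and its groups did not overlap. The part of macrophage transcripts in the rises of Lgals9 and Lgals3bp was not tested.

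Of 12 endothelial markers 11 were tested, none was at 0 in all libraries, and 4 were higher, where 4.03% of all tested genes were (Plvap by 1.44, Cdh5 by 1.07, Pecam1 by 0.90 and Tie1 by 0.56 on the log2 scale). The other 7 did not pass, among them Flt1, the marker with the most reads (log2 fold change 0.12, adjusted p = 0.518, edgeR). The log2 fold changes of the 11 ran from 0.12 to 1.44, with a median of 0.56. The summed normalized counts of the 12 lay between 1978 and 2446 with si-NC and between 2681 and 2823 with si-GPD1L, a ratio of 1.23. Flt1 alone had means of 1309 with si-NC and 1421 with si-GPD1L. Lgals3bp and Lgals9 differed 3.71-fold and 5.11-fold, and the part of endothelial transcripts in those results was not tested. Without si-NC replicate 2, si-GPD1L replicate 2 or si-GPD1L replicate 3, 2 of these markers were called. Of the 12 fibroblast markers Fbln2 rose by 0.55 and Dcn and Lum fell by 0.66 and 0.77, with a ratio of 1.03 for the sum. Without si-GPD1L replicate 1 or 2, 1 of these markers was lower, and without si-NC replicate 1, 3 were higher. The cardiomyocyte sum had a ratio of 0.93, with Pln lower (log2 fold change -0.44, adjusted p = 0.0337, edgeR), and Pln was not called without si-GPD1L replicate 1 (adjusted p = 0.171), 2 (adjusted p = 0.152) or 3 (adjusted p = 0.0507). Of 12 smooth muscle and pericyte markers 2 were higher and 1 lower, with a ratio of 0.933 for the sum and with 1 to 2 higher and 0 to 5 lower when a library was left out. Beside the calls in the fibroblast, cardiomyocyte and smooth muscle lists, 4.03% of all tested genes were called higher and 2.33% lower.

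Most tested genes within 100 kb of Lgals9 and Lgals3bp on the chromosome were not called. Within 100 kb of Lgals3bp 6 of 8 genes were tested. Of these 1 was called, higher, and 3 had an unadjusted p under 0.05. Among all 14852 tested genes 4.03% were called higher and at least 3301 had such a p. The nearest, Cant1, a nucleotidase 7.83 kb upstream, had 693.5 ± 42.68 and 713 ± 27.52 normalized counts, and Timp2, a metalloproteinase inhibitor 29.3 kb downstream, had a log2 fold change of -0.23 (adjusted p = 0.175, edgeR). Cep295nl, 34.1 kb downstream, had a log2 fold change of 0.51 and was not called (unadjusted p = 0.0212 and adjusted p = 0.14, edgeR). The called neighbour was C1qtnf1, which encodes a secreted protein of the C1q and TNF family and lies 31.2 kb upstream on the opposite strand. It had 719.7, 682.5 and 777.8 normalized counts in si-NC and 1086, 1104 and 1144 in si-GPD1L and rose by 0.61 (adjusted p = 0.000267, edgeR).

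Within 100 kb of Lgals9 only Phf12 and Abr of 5 genes were tested, with log2 fold changes of 0.12 and 0.089, and neither was called by edgeR or DESeq2 or had an unadjusted p under 0.05. At 106 kb downstream, in the wider window of 250 kb, Sez6 went from 3, 1 and 1 reads in si-NC to 61, 18 and 27 in si-GPD1L (log2 fold change 4.32, adjusted p = 0.00314, edgeR). Sez6 was the 1 called gene of the 8 tested in that window, where 4.03% of all tested genes were called higher. Of the 8, 5 and 3 genes tested within 100 kb of Lgals1, Lgals3 and Lgals8 none was called by edgeR's quasi-likelihood test, its exact test or DESeq2's Wald test, with 2, 0 and 1 at an unadjusted p under 0.05. In the 250 kb windows of these 3 genes 18, 7 and 4 genes were tested, and only the exact test called a gene, 1 near Lgals1. The quasi-likelihood test called 6.36% of all tested genes. Lgals2 lies 75.6 kb upstream of Lgals1 and stayed at the few reads given above. All these distances and sides are those of rn6, where Lgals5 lies at 66226015 to 66229293 on chromosome 10, outside the Lgals9 window. In GRCr8 Lgals9 lies on the minus strand, with its ISRE window at chr10:64428067-64428096 and that of Lgals5 at chr10:64355171-64355200. The neighbours of Lgals9 and their sides may therefore differ in GRCr8, which was not examined.

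**Figure D5:**
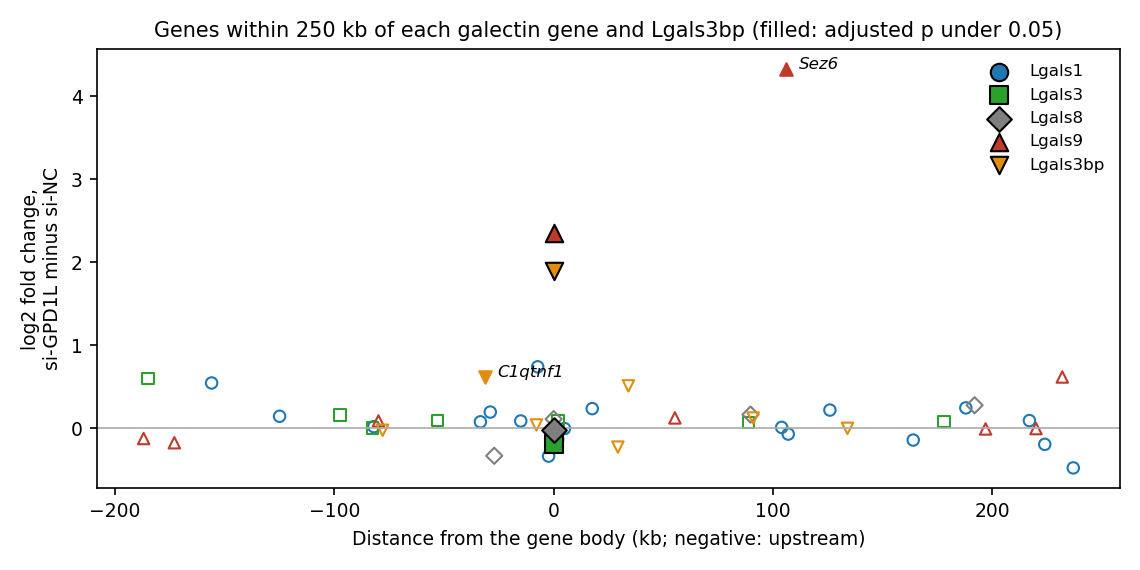
Log2 fold change (vertical axis, si-GPD1L minus si-NC) of tested genes within 250 kb of each of the 5 genes against their distance in kb (horizontal axis, negative upstream), with the 5 genes themselves as large symbols at 0 and called neighbours filled. C1qtnf1 near Lgals3bp at 0.61 and Sez6 near Lgals9 at 4.32 are the called neighbours. Distances and sides are those of rn6.

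The genes whose log2 normalized counts followed each of the 5 most closely over the 6 libraries were ranked by Pearson's r among 11031 genes. This is a description without a test, since with 2 groups genes that rose strongly tend to follow one another. Lgals3bp was followed most closely by Irf7, Parp9 and Igtp (r = 0.9998, 0.9997 and 0.9997), and 73 genes had r above 0.99. Irf7 encodes an interferon regulatory factor and Igtp an interferon-inducible GTPase. Lgals9 was followed by Gbp2, Parp12 and RT1-N3 (r = 0.9994, 0.9992 and 0.9992), with 70 genes above 0.99, of which Gbp2 encodes a guanylate-binding protein and RT1-N3 belongs to the MHC class I genes, whose copies can share reads.

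The genes most like the other 3 were of another kind. Lgals3 was followed by Tnnt2, the cardiac troponin T, by Cnih4 and by Rbm25 (r = 0.9973, 0.997 and 0.9957), with 22 genes above 0.99. Tnnt2 itself had a log2 fold change of -0.25 (adjusted p = 0.103, edgeR). Lgals1 was followed by Oat, Tsta3 and Marcks (r = 0.994, 0.993 and 0.9922), with 3 genes above 0.99. For Lgals8 the closest were Mir22, Rbmxl1 and Bre (r = 0.9883, 0.9873 and 0.9833), none above 0.99, and none of the genes named for Lgals1, Lgals3 and Lgals8 was called by edgeR.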

How the data were processed

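Polyadenylated RNA of 3 si-NC and 3 si-GPD1L libraries was sequenced with paired ends. The submitters' processing notes name bcl2fastq, HISAT2 2.1.0, HTSeq 0.12.4 and the build rn6. Their parameters, the strand setting and the annotation release are not given in the sources used here. The authors deposited raw read counts and TPM values for 40154 genes and 55760 transcripts. The authors' own tables of comparisons and enrichment hold a signal per library, log2 fold changes, p-values and q-values, and were not used.

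Genes were filtered with filterByExpr, normalized by TMM (factors 0.994 to 1.01) and compared with edgeR 4.0.16 (glmQLFit and glmQLFTest, R 4.3.3) with Benjamini-Hochberg adjustment over all 14852 genes, and transcripts likewise. The biological coefficient of variation was 0.0895. A normalized count is a count scaled by effective library size to the mean library size, an SE is the size of the log2 fold change divided by the root of F, and intervals are 95%. TPM values were only described. Ratios used exact permutation in scipy 1.17.1 under Python 3.11.15 with pandas 2.3.3, and figures used matplotlib 3.10.9. The procedure was tested on simulated data. Replicates differed by more than sampling noise, as chi-square tests of their counts showed (3.89 to 27.4 per degree of freedom). The pairs with si-NC replicate 1 gave 19.7 and 27.4, the other si-NC pair 8.35, and the si-GPD1L pairs 3.89 to 5.81.

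Named were the 5 genes, Gpd1l, every other galectin gene, up to 4 called genes of each list with the smallest adjusted p, called genes within 100 kb, the fibrosis genes of the study, the most abundant markers of a cell type, and the 3 genes most alike by Pearson's r among those averaging 50 or more normalized counts. Mcam, Lamp1, Lamp2, Map1lc3a, Gabarap, Mgat5, St6gal1, Trim16, Sqstm1, Calcoco2, Cd163, Tyrobp, Heatr1, Cant1, Timp2, Cep295nl, Phf12, Abr and Sez6 were named after their values were seen. The members and gene lists were chosen with earlier results of these data known, so list counts carry no test. Alternatives were DESeq2 1.42.0 (size factors and Wald test), upper-quartile factors, library size alone, edgeR's exact test, other filters (1 count in all, or 10 counts in every library), summed transcript counts, the replicate number as a block, and each library left out. Protein sequences were not analysed here.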

Additional observations from a re-analysis of the deposited data

How the results depend on the processing

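Lgals9 and Lgals3bp kept their direction and their call under the 15 alternatives run on them, with log2 fold changes of 2.26 to 2.42 and 1.83 to 1.93 and adjusted p-values of at most 5.41e-07 and 4.42e-07 (edgeR and DESeq2). Lgals1 stayed between -0.21 and -0.016 and Lgals3 between -0.23 and -0.12, with adjusted p-values of 0.151 to 0.912 and 0.121 to 0.448, and neither was called. Lgals8 turned to 0.033 without si-NC replicate 1 and to 0.027 without si-GPD1L replicate 3, within a range of -0.078 to 0.033 over the left-out libraries, and 4 of its transcripts turned with it, to 0.018, 0.018, 0.012 and 0.022 without the former and to 0.0093, 0.0059, 0.0075 and 0.018 without the latter, where the low ends of the left-out ranges were -0.12, -0.12, -0.13 and -0.11. The Lgals8 ratio turned to -0.053 against the tested genes with reads in every library. Leaving out each library in turn for the ratios to Lgals1, chosen after the data were seen, gave 2.35 to 2.55 for Lgals9 and 1.87 to 2.1 for Lgals3bp.

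The members called were 2 higher and 0 lower under all 14 gene-level alternatives. The count of all genes called moved more. Called lower were 655 by edgeR's exact test and 874 with all genes of at least 1 count, where 1055 were called higher. With an absolute log2 fold change over 1, 38, 40 and 10 were lower under the exact test, that wider filter and the filter of 10 counts in every library. Leaving out 1 library gave 299 to 861 higher and 53 to 670 lower, with 6 to 28 of the latter past the fold threshold. Called lower were 670 without si-NC replicate 1 and 639 without si-NC replicate 3, beside 346 with all libraries. Without si-GPD1L replicates 1 and 2 they were 67 and 53. The cause of these moves, in fits that hold fewer libraries, was not tested.

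Deviations of libraries with the same replicate number correlated at 0.0398, -0.0036 and 0.0468, and those with different numbers at -0.092 to 0.053. These values cannot tell whether libraries with the same number shared a culture or batch, which the labels do not give. With the number as a replicate block, Lgals9 was at 2.35 and Lgals3bp at 1.89 (adjusted p = 4.96e-09 and 1.81e-08, edgeR), and 560 genes were called higher and 361 lower. Over all alternatives the higher and lower calls ran from 0 to 8 and 0 to 2 among galectin ligands, 0 to 1 and 0 to 3 among N-glycan enzymes, 1 to 2 and 0 to 4 in the membrane damage list, 0 to 3 and 0 to 2 among relatives of Lgals3bp, and 0 to 1 in either direction among the 4 fibrosis genes. Depth limits Lgals5, Lgals2 and Lgals7, which had 0 to 9 reads in a library.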
